A study of Mus musculus with 55 samples.

Results

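The subunits of the respiratory chain and the ATP synthase were followed in the livers of 55 male mice, as the 96 genes whose symbols match the naming roots of the 5 complexes. Rows of the count table were taken by symbol: the Nduf roots of complex I, Sdha to Sdhd of complex II, the Uqcr root of complex III, Cox4 to Cox8 of complex IV and the Atp5 root of complex V, together with the 13 protein genes of the mitochondrial genome. Of 24475 gene symbols, 105 matched, and the 96 with a mean of at least 1 CPM (counts scaled to a fixed library total) over all libraries were kept. These are 83 nuclear genes (36 of complex I, 7 assembly factors of complex I, 4 of complex II, 8 of complex III, 11 of complex IV and 17 of complex V) and 13 mitochondrial genes (7 of complex I, 1 of complex III, 3 of complex IV and 2 of complex V). The names rather than any measured change chose the members, apart from the minimum level: just inside it lay Atp5s with a mean of 4.24 CPM and Ndufaf5 with 4.37, and just outside it Cox7a1 with 0.93 and Ndufa4l2 with 0.66. The other rows left out were Cox6b2, Ndufs5, Cox4i2, Cox6a2 and Cox8b, with means from 0.01 to 0.16 CPM, and Cox8c and Cox7b2, which had a mean of 0. Ndufs5, at 0.11 CPM, lay far below the kept subunits of complex I. Why was not tested, so its low count is not read as absence from liver. All 96 members passed the filter on low counts, among 13311 genes tested.

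The WT strain is the F1 hybrid B6EiC3SnF1/J. The OTC strain is B6EiC3Sn a/A-Otcspf-ash/J and bears the spf-ash variant of Otc, the X-linked gene of the urea cycle enzyme ornithine transcarbamylase. The stock and the hybrid can differ in more than Otc, so variant and background cannot be told apart. At 4 months of age every mouse received an adeno-associated virus (AAV) into a vein, which carried a scrambled hairpin (the control), a hairpin against Gls2 (sh-GLS2; Gls2 encodes liver glutaminase) or a hairpin against Glud1 (sh-GLUD1; Glud1 encodes glutamate dehydrogenase). All groups were moved from chow to a diet with 40% protein at week 2, livers were collected at week 5, and the labels give an age of 5 months. The control vector went to 10 WT and 8 OTC mice, sh-GLS2 to 10 WT and 10 OTC mice, and sh-GLUD1 to 9 WT and 8 OTC mice. The mouse number of 1 OTC control library could not be matched to a sample title, and it is called unnumbered here. No sample was uninjected or kept on chow, so neither the virus nor the diet can be compared with its absence.

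Oxidative phosphorylation passes electrons from NADH through complex I, and from succinate through complex II, to complex III and then complex IV, where oxygen is reduced to water. Complexes I, III and IV pump protons across the inner mitochondrial membrane, and complex V, the ATP synthase, lets them flow back to make ATP. Complex II is built from nuclear genes alone, whereas the other complexes join subunits from the nucleus, whose messenger RNAs are read in the cytosol, with a core read from long transcripts of the mitochondrial genome that are cut into single messages. Liver mitochondria also house the first steps of the urea cycle, and glutaminase and glutamate dehydrogenase release ammonia inside them.

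Libraries held 14489866 to 22781052 counts (median 18683991), and the labels name no batch. The targeted genes followed the labels: Otc was 472 to 596 CPM in WT controls and 43 to 79.1 in OTC controls, and Gls2 fell by 1.11 ± 0.10 (log2, SE) in WT and 1.15 ± 0.10 in OTC mice under sh-GLS2. Glud1 fell by 1.42 ± 0.12 and 1.27 ± 0.13 under sh-GLUD1, and Otc rose by 0.27 ± 0.08 in OTC mice under sh-GLS2 (adjusted p = 0.00874). Hepatocyte markers summed to 78237 to 136831 CPM over the WT control and OTC control libraries, as in the labelled tissue, liver. Markers of other cells were low beside them, and lists with markers that moved are given in part beside the results. Markers of muscle and fat were too low to test, with group medians of at most 0.242 CPM, but the highest library sums were 60.7 CPM for muscle and 8.07 CPM for fat in WT sh-GLS2 and 13.3 CPM for fat in WT sh-GLUD1. The OTC controls of mice 3 and 67 stood apart from the other OTC controls with high sums of both nuclear and mitochondrial members. They were left out, with the WT control of mouse 13, in an alternative whose values stand beside the results that it moves. These OTC controls were picked by the sums of the members themselves. Leaving them out therefore lowers the members in OTC controls by construction, and the values of this alternative are no independent check. Why WT control 13 was added is not given here. In whole liver, fewer cells of a type and less RNA per cell cannot be told apart.

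The 13 mitochondrial genes took 8.85% to 14.5% of all counts of a library and the 83 nuclear members 0.813% to 1.28%. Nuclear members took a median of 0.924% of counts in WT controls (0.813% to 1.03%), 0.882% under sh-GLS2 (0.823% to 0.915%) and 0.958% under sh-GLUD1 (0.932% to 1.07%). In OTC mice the medians were 1.08% in controls (1.002% to 1.24%), 0.994% under sh-GLS2 (0.933% to 1.06%) and 1.13% under sh-GLUD1 (0.971% to 1.28%). So each OTC group had a higher median nuclear share of unscaled counts than the WT group with its vector. In each strain sh-GLS2 had the lowest median. The mitochondrial share had its highest median under sh-GLS2 in each strain. That median was 12.2% in WT mice (11.4% to 13.0%), against 11.5% in WT controls (10.3% to 12.6%) and 11.8% under sh-GLUD1 (10.9% to 12.8%). In OTC mice it was 13.1% (11.6% to 14.5%), against 11.1% in controls (9.43% to 14.2%) and 10.3% under sh-GLUD1 (8.85% to 12.4%). Mitochondrial counts per nuclear count therefore had their highest medians under sh-GLS2, with 14.2 in WT (13.0 to 14.4) and 13.4 in OTC (11.6 to 14.3). The median ratio was 12.5 in WT controls (11.5 to 13.7), 12.1 in WT sh-GLUD1 (10.1 to 13.3), 10.4 in OTC controls (8.67 to 11.8) and 9.40 in OTC sh-GLUD1 (7.78 to 10.2). Among OTC mice the lowest sh-GLS2 ratio lay above the highest sh-GLUD1 ratio, while sh-GLS2 and control overlapped. These sums describe the libraries and were not tested. They divide by all counts without the TMM scaling factors used in the tests, which ran from 0.92 to 1.12. Those factors were mostly higher in OTC libraries, so shares of unscaled counts set OTC groups higher than the tests do. With the scaling, the median log2 fold change of OTC against WT under sh-GLS2 was 0.03 for nuclear and −0.05 for mitochondrial members.

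**Figure D1:**
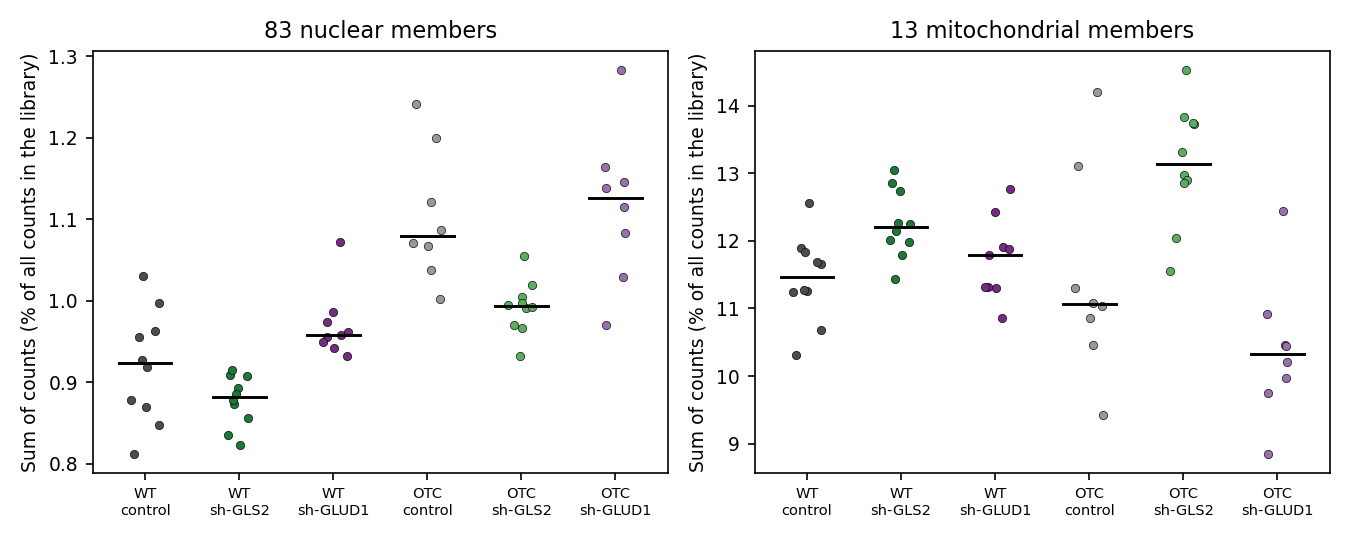
Sum of the counts of the 83 nuclear members (left) and of the 13 mitochondrial members (right) in percent of all counts of each library (y axis), by group (x axis), with 1 point per mouse and a bar at the median. The nuclear medians of the OTC groups, 0.994% to 1.13%, lie above those of the WT groups, 0.882% to 0.958%, and the mitochondrial share is highest in OTC mice under sh-GLS2 (median 13.1%). Shares are of unscaled counts, without the TMM factors that were mostly higher in OTC libraries.

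Per length, the mitochondrial messages other than ND6 were the most abundant members. In the deposited TPM (transcript abundances scaled to a fixed total, which divide by length), the mean over the libraries had a median of 11247 among mitochondrial and 185 among nuclear members. COX1, the catalytic subunit of complex IV, had a mean of 39511 TPM and ATP6, the proton channel subunit of complex V, 39323. ND6 was the lowest mitochondrial gene at 602 TPM. It is the one protein gene read from the opposite strand and its message carries little poly(A), on which this library kit selects. Whether this bears on its level here was not tested. Among nuclear members Atp5b, the catalytic β subunit of complex V, led with 999 TPM, followed by Ndufa4 (823), Uqcrq of complex III (681.5), Atp5g3 (663), Atp5a1 (659) and Cox4i1 (620). Assembly factors were at the other end, with 13.5 TPM for Ndufaf6 and 2.63 for Ndufaf5. Within groups a nuclear member varied between mice with a median SD of 0.13 on the log2 scale, against 0.18 for mitochondrial members. The median over all genes tested was 0.21, but on TMM-normalized CPM with 0.5 added, so it is not strictly comparable. ND6 varied most, with an SD of 0.95, and it passed no test in any comparison.

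Under the control vector, 37 of the 83 nuclear members were higher in OTC than in WT livers and 4 were lower, against 19.9% and 16.4% of all genes called in those directions at an adjusted p below 0.05. The median log2 fold change was 0.14 for nuclear members and 0.02 for all genes tested. By the complex of their name, 14 of 36 genes of complex I rose and 2 fell, 1 of 4 of complex II rose, 5 of 8 of complex III, 6 of 11 of complex IV, and 11 of 17 of complex V rose while 1 fell. The roots take in Atp5sl, which is no subunit of complex V, Atp5s, which RefSeq no longer names for it, and Ndufa4, now placed in complex IV. Without them 9 of 15 genes of complex V and 13 of 35 of complex I rose. None of the 7 assembly factors rose, and Ndufaf1 fell. Mitochondrial members did not follow, with none of 13 called higher, 3 lower and a median of −0.05. On TPM, where the median of all genes moved from 0.02 to 0.10, the mitochondrial median was 0.04 and so changed sign, while the nuclear median was 0.25. Relative to the median of all genes, nuclear members stood at 0.12 on counts and 0.15 on TPM, and mitochondrial members at −0.07 and −0.06. Of 8 hepatocyte markers 5 rose between these groups and 1 fell, 3 of 8 stellate cell markers fell and 1 rose, 4 of 6 genes of dividing cells fell, and no macrophage marker was called. Also 2 of 6 erythroid and 1 of 7 endothelial markers fell, and 1 of 6 bile duct markers rose. Their part in the result was not tested.

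Sdhd and Ndufa6 were the nuclear members whose OTC and WT controls did not overlap, 2 of 83 against 1.5% of all genes apart in that direction. That is too few to set the members apart from all genes, so the values describe these genes only. No member was apart in the other direction (1.91% of all genes). Sdhd, a membrane anchor of complex II, had 120 to 190 CPM in WT controls (median 164) and 205 to 286 in OTC controls (median 229). Its log2 fold change was 0.54 ± 0.07 (adjusted p = 1.27e-07), or 1.45-fold. Ndufa6, an accessory subunit of complex I, had 65.2 to 96.7 CPM in WT controls (median 75.9) and 98.7 to 131 in OTC controls (median 115), a change of 0.53 ± 0.08 (adjusted p = 1.44e-06). Every OTC control thus exceeded every WT control for both genes. Atp5g2, which encodes the c subunit that forms the rotor ring of the ATP synthase, had 57 to 79.6 CPM in WT controls (median 69.6) and 77.2 to 113 in OTC controls (median 92.0), so the groups overlapped slightly. It rose by 0.44 ± 0.06 (adjusted p = 2.26e-07).

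Other subunits of the ATP synthase rose as well. Atp5b had 841 to 1072 CPM in WT controls (median 959) and 1050 to 1503 in OTC controls (median 1177), a rise of 0.34 ± 0.06 (adjusted p = 5.64e-06), and Atp5o, which joins the head to the stalk, rose by 0.36 ± 0.08. Atp5sl, which RefSeq names Dmac2, matched the name rule and rose by 0.42 ± 0.10. Atp5s, named Dmac2l there, rose by 0.53 ± 0.16 (adjusted p = 0.00905), from 2.58 to 4.40 CPM in WT controls (median 3.42) to 3.33 to 8.79 in OTC controls (median 4.28). Its call rests on the OTC control of mouse 67, without which the adjusted p was 0.0663. In complex III, Uqcrh, the hinge protein beside cytochrome c1, had 103 to 150 CPM in WT controls (median 125) and 141 to 205 in OTC controls (median 150) and rose by 0.33 ± 0.07 (adjusted p = 1.23e-04). Cox4i1, a nuclear subunit of complex IV with regulatory contacts to ATP, had 198 to 283 CPM in WT controls (median 243) and 257 to 419 in OTC controls (median 283), and it too rose by 0.33 ± 0.07.

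A few members went against their complex. Atp5k, the e subunit that helps ATP synthases pair in the membrane, had 51.9 to 75.3 CPM in WT controls (median 62.2) and 44.4 to 59.1 in OTC controls (median 53.3) and fell by 0.22 ± 0.07 (adjusted p = 0.00811), the 1 called member of complex V to do so. In complex I, Ndufb3 fell by 0.20 ± 0.07 (adjusted p = 0.0226) and Ndufs8, a core subunit with iron-sulfur clusters, by 0.13 ± 0.05 (adjusted p = 0.0245). Ndufs8 missed the threshold without the OTC control of mouse 3 (adjusted p = 0.0507). Ndufaf1, an assembly factor of complex I, fell by 0.23 ± 0.07 (adjusted p = 0.00687). Without the OTC controls of mice 3 and 67 and the WT control of mouse 13, 21 of the 37 nuclear members were called higher (14% of all genes), and the nuclear median was 0.08. Then 4 were lower (14.4% of all genes): Atp5k, Ndufb3, Ndufaf1 and Ndufaf7, which was not called with all libraries, while Ndufs8 was not called. A fit of the WT and OTC controls alone called 22 higher and 2 lower (15% and 13.7% of all genes). Limma on log2(TPM + 1) called 61 higher and none lower, where 34.3% of all genes were called higher and 9.98% lower.

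**Figure D2:**
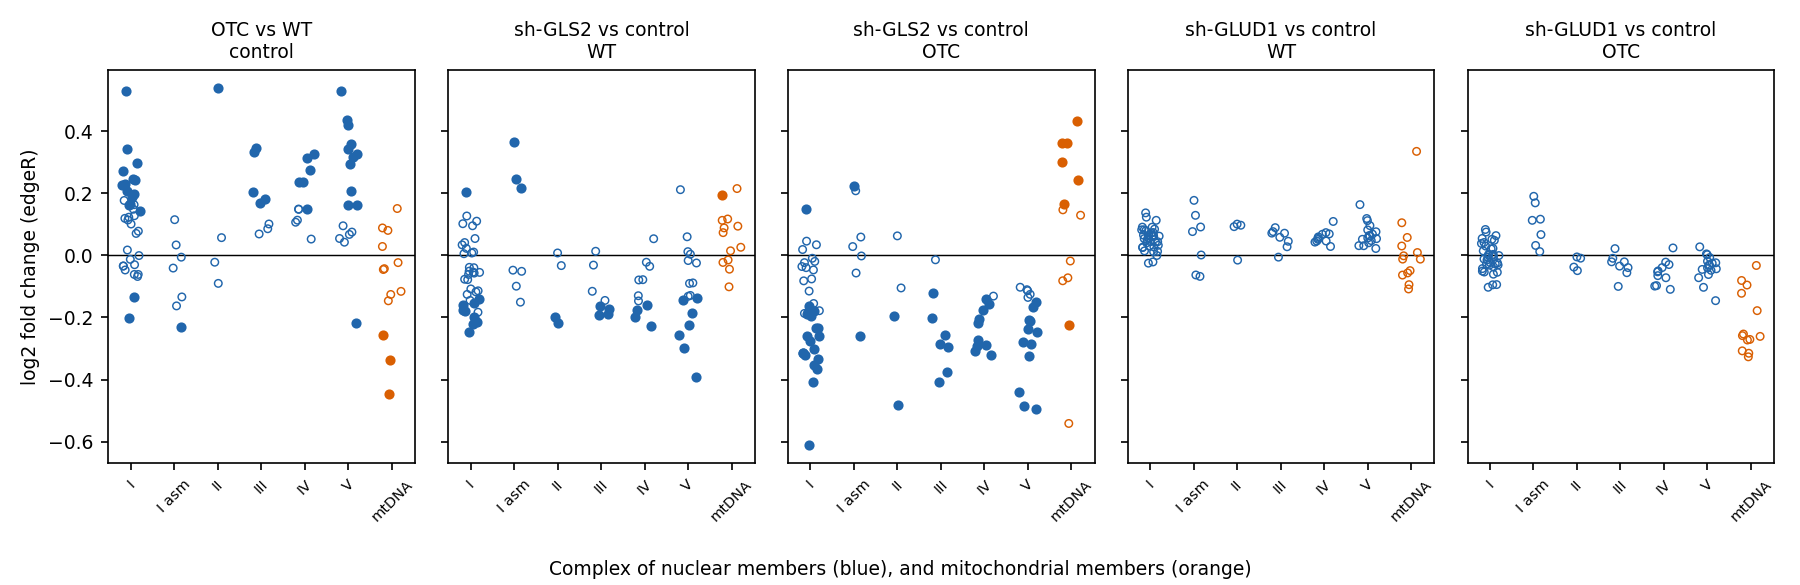
Log2 fold change (y axis) of each member in 5 comparisons (panels), by complex for nuclear members in blue (I asm: assembly factors of complex I) and for mitochondrial members in orange (x axis); filled points passed an adjusted p of 0.05 in edgeR and open points did not. In OTC against WT most filled nuclear points (37 of 41) lie above 0, under sh-GLS2 in OTC mice most (52 of 54) lie below 0 while 6 of 7 filled mitochondrial points lie above, and under sh-GLUD1 no point is filled.

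The sequences before the start of these genes were searched for motifs of factors known for respiratory genes. Of the 83 nuclear members, 68 had a promoter window in RefSeq (GRCm38.p6), and 4 are printed as examples, picked after the data were seen. They are Atp5g2 and Ndufa6, which rose in OTC mice, Uqcrh, which rose too, and Atp5k, which fell. Each line holds the 150 bases before the annotated start, 5′ to 3′ on the gene's strand, and capitals mark an exact match to a motif bound by NRF1 (GCGCATGCGC) or by ETS family factors such as GABP (CCGGAAGT, or ACTTCCGG on the other strand). The windows are chr15:102671048-102671197 (−) for Atp5g2, chr5:108434400-108434549 (−) for Atp5k, chr4:116075071-116075220 (−) for Uqcrh and chr15:82354292-82354441 (−) for Ndufa6.
Atp5g2: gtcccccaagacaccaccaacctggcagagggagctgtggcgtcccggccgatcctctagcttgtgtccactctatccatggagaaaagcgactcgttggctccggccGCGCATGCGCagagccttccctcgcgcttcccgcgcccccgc
Atp5k: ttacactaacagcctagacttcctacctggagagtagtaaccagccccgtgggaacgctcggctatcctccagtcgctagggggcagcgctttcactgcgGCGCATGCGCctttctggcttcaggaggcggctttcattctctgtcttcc
Uqcrh: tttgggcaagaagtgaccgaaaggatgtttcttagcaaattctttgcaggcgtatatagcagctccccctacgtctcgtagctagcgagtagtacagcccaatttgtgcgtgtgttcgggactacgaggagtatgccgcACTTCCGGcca
Ndufa6: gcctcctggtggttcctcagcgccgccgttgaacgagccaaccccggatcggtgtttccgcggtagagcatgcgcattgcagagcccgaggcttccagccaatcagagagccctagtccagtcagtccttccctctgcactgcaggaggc
The NRF1 motif began 42 bases before the start in Atp5g2 and 50 before it in Atp5k, which went in opposite directions in OTC mice, and the ETS motif 11 bases before it in Uqcrh. None of the motifs searched was in the letters of Ndufa6. Over windows of 250 bases and both strands, the NRF1 motif, a palindrome, was in 5 of 68 members (7.35%) and in 237 of 27025 genes (0.877%). The ETS motif was in 3 members (4.41%, against 3.23% of genes), the YY1 motif AAGATGGC in 1 (1.47%, against 1.83%) and the motif TCAAGGTCA of estrogen-related receptors in 1 (1.47%, against 0.422%). Any of these motifs was in 10 of 68 members (14.7%), against 6.15% of genes, so the printed windows hold motifs more often than the members do. Sdhd, Atp5b and Atp5o, which also rose in OTC mice, held none. A match is a description of these letters and not a site of binding.

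**Figure D3:**
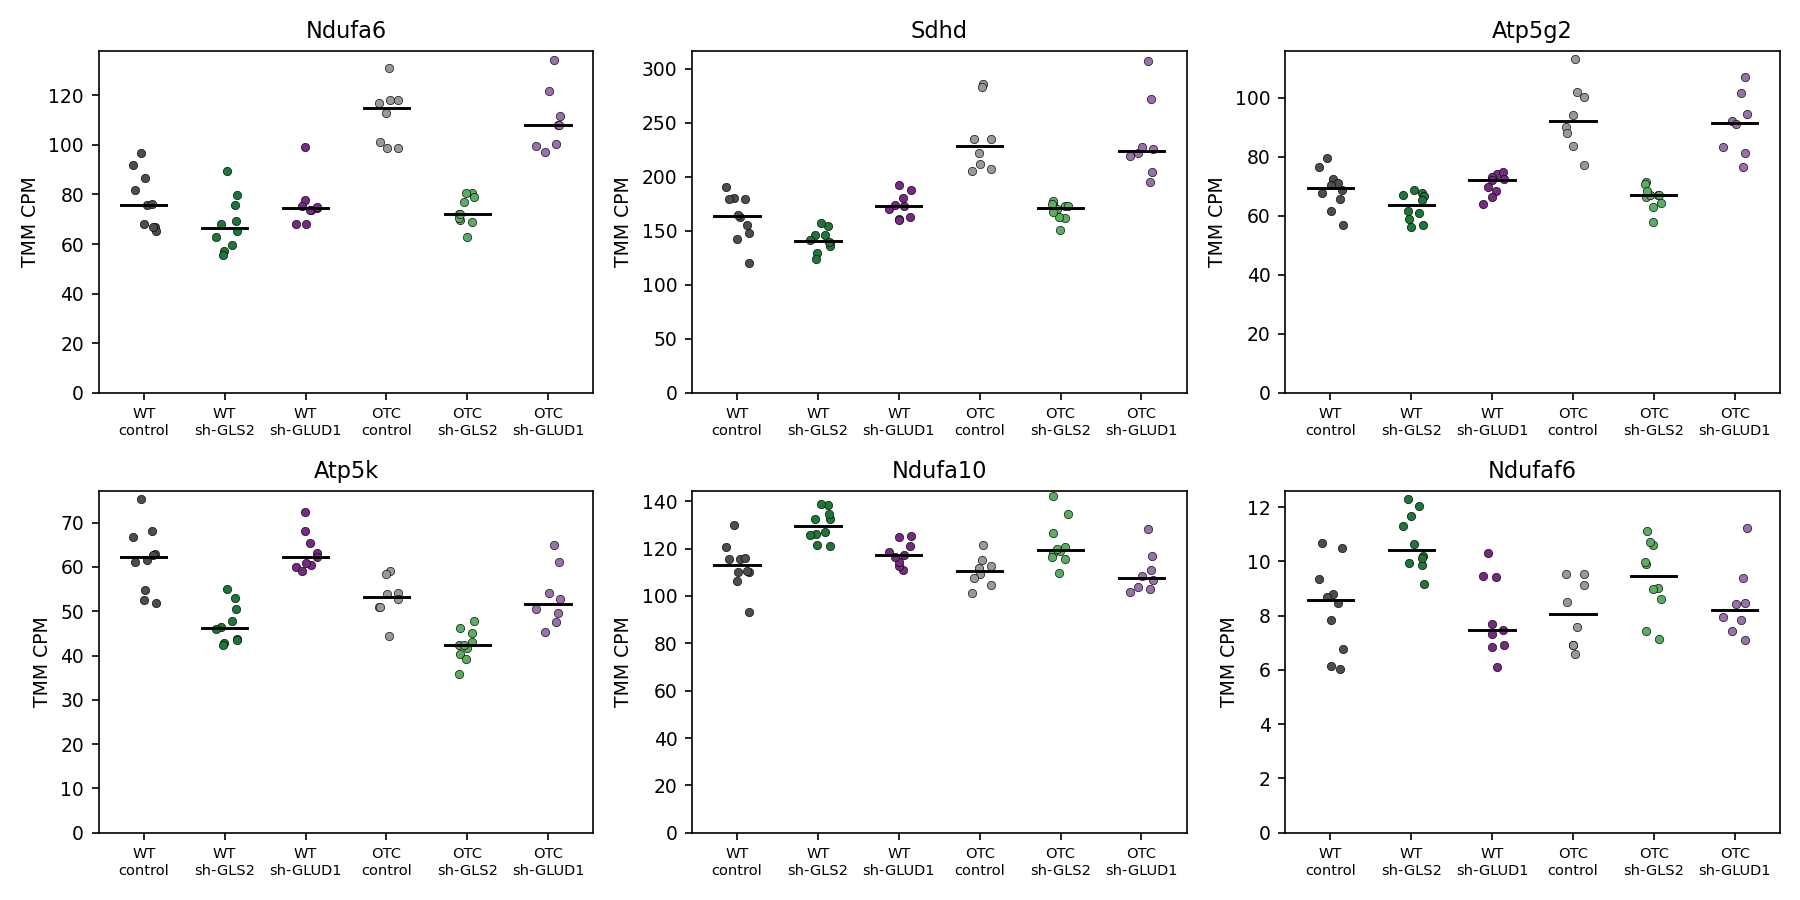
Level in TMM-normalized CPM (y axis, from 0) of 6 nuclear members in each library, by group (x axis), with 1 point per mouse and a bar at the median. Ndufa6, Sdhd and Atp5g2 are high in OTC control and OTC sh-GLUD1 livers and lower in OTC sh-GLS2 livers (medians 72, 171 and 67.1 CPM), Atp5k is lowest under sh-GLS2 in each strain, and Ndufa10 and Ndufaf6 have higher medians under sh-GLS2 than under control.

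The mitochondrial genes that fell in OTC mice were CYTB, ND4L and ND4, which lie late in the order of the genome, while ND5, which lies between ND4 and CYTB, was not called. CYTB encodes cytochrome b, the core of complex III. It had 10623 to 13756 CPM in WT controls (median 12065) and 5478 to 13362 in OTC controls (median 8123), and fell by 0.45 ± 0.10 (adjusted p = 5.50e-04), to 0.73 of the WT level. ND4L and ND4 encode membrane subunits of complex I that pump protons. ND4L had 1379 to 1871 CPM in WT controls (median 1506) and 791 to 1506 in OTC controls (median 1205), and fell by 0.34 ± 0.08 (adjusted p = 0.00102). ND4 had 11298 to 14479 in WT (median 12060) and 7206 to 14695 in OTC controls (median 10013), and fell by 0.26 ± 0.09 (adjusted p = 0.0160). The OTC controls thus overlapped the WT controls for all of these genes, and the widest spread was within the OTC controls. At the other end of the genome ND1 was at 0.15 with an adjusted p above 0.05 and 5363 to 7467 CPM in WT (median 6454) against 5794 to 9185 in OTC controls (median 6801). Without the OTC control of mouse 3, 5 mitochondrial genes were called lower, ND2 and COX3 among them. Without that mouse, mouse 67 and WT control 13 the fall of CYTB was 0.64, that of ND4L 0.44 and that of ND4 0.42. Mice 3 and 67 had been picked for high sums of the members, so a deeper fall follows from that choice. In the fit of the control groups alone ND4 missed the threshold (adjusted p = 0.0857), as it did on TPM (adjusted p = 0.0506 with 1 as the pseudocount).

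These messages lie next to each other. Some share bases, which bears on how reads can be assigned to them, and some end before their stop codon is complete. ND4L (MT:9877-10173) and ND4 (MT:10167-11544) share 7 bases in GENCODE M21 on GRCm38, and ATP8 and ATP6 share 43 bases at MT:7927-7969. That stretch is printed with the first codon of ATP6 and the last codon of ATP8 in capitals, and beside it the last 24 bases of 3 genes, with the last whole or incomplete codon in capitals.
ATP8 and ATP6 shared stretch: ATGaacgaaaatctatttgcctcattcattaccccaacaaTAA
ND1: gcgggagtaccaccatacataTAG
ND4: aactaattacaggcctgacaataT
CYTB: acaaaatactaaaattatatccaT
ND1 ends with a whole stop codon, while ND4 and CYTB end in a single T that becomes a stop codon only when the poly(A) tail is added. ATP8 and ATP6 counts cannot be fully separated where reads fall in the shared stretch, and ATP8 had the lower counts of the pair.

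**Figure D4:**
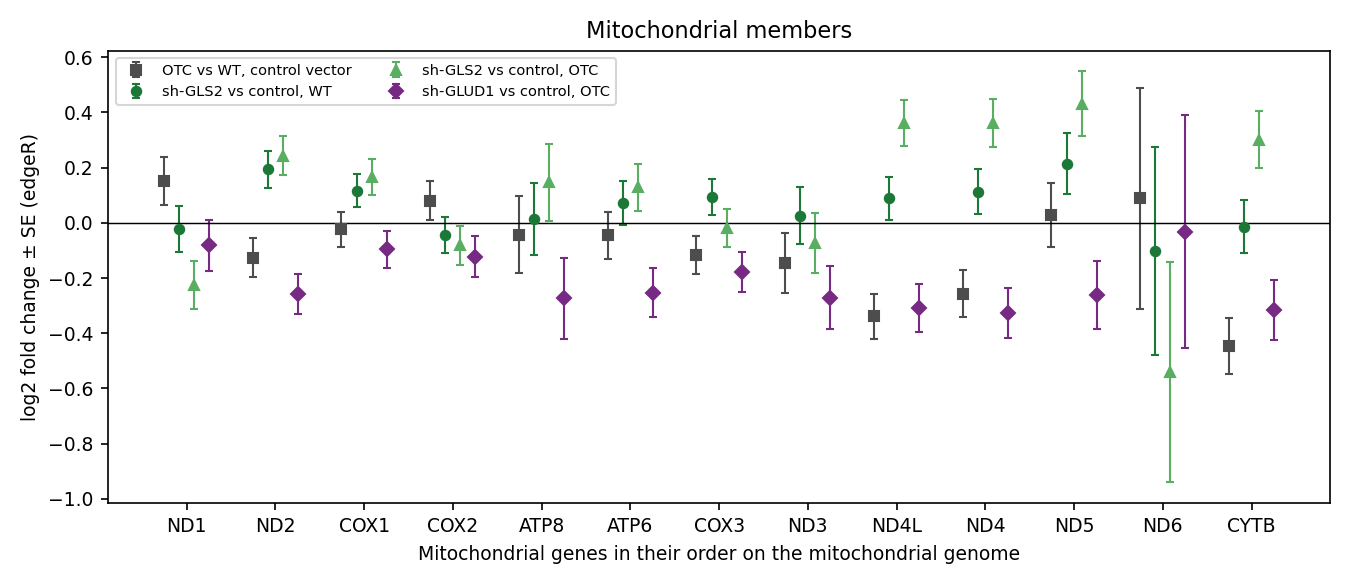
Log2 fold change with its SE (y axis) of the 13 mitochondrial genes in their order on the mitochondrial genome (x axis), for OTC against WT under the control vector (squares), sh-GLS2 in WT (circles) and in OTC mice (triangles), and sh-GLUD1 in OTC mice (diamonds). ND4L, ND4 and CYTB lie below 0 in OTC against WT (−0.34, −0.26 and −0.45) and above 0 under sh-GLS2 in OTC mice (0.36, 0.36 and 0.30), and ND6 has the widest error.

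The strains were also compared under each hairpin. Under sh-GLUD1, 20 nuclear members were higher in OTC than in WT livers and 7 lower. These are 24.1% and 8.43% of the nuclear members, against 19.9% and 15.1% of all genes. The share higher was thus near that of all genes, and the share lower was below it. Of the mitochondrial members 8 were lower (61.5%) and none higher. Of the 37 nuclear members higher under the control vector, 19 were called again (51.4% of 37 and 95% of 20). The overlap over all genes is not given, here or for sh-GLS2 below, so such overlap cannot be called particular to the members. The calls lower under the control vector, Atp5k, Ndufaf1, Ndufb3 and Ndufs8, were all called again, and so were CYTB, ND4L and ND4. Ndufa6 rose by 0.53 ± 0.08 (adjusted p = 2.54e-06), Sdhd by 0.43 ± 0.08 (adjusted p = 1.41e-05), Atp5g2 by 0.36 ± 0.06 and Ndufs7, a core subunit of complex I, by 0.30 ± 0.07. Sdhd and Atp5g2 did not overlap between the strains (2 of 83 nuclear members, near the 2.01% of all genes). Ndufa9 and Ndufs6 of complex I (each −0.13 ± 0.05) and Sdha, the flavoprotein of complex II (−0.19 ± 0.04), were lower.

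Among mitochondrial genes under sh-GLUD1, CYTB fell by 0.77 ± 0.11 between the strains (adjusted p = 1.70e-07), with 11103 to 12332 CPM in WT (median 12192) and 5529 to 9563 in OTC mice (median 6826). ND4L fell by 0.58 ± 0.08, with 1350 to 1641 CPM in WT (median 1457) and 825 to 1159 in OTC (median 987). ND4 fell by 0.53 ± 0.09, with 10453 to 13520 CPM in WT (median 12194) and 6137 to 9971 in OTC (median 8253). In these 3 genes every OTC library lay below every WT library, against 2.88% of all genes apart in that direction. ND3 (−0.37 ± 0.11), COX3 (−0.35 ± 0.07), ATP6 (−0.29 ± 0.09), ND2 (−0.28 ± 0.07) and COX1 (−0.22 ± 0.07) were lower as well. On TPM the median of all genes moved from 0.02 to 0.15 here, the split of nuclear calls went from 20 higher and 7 lower to 53 higher and none lower (43% and 7.27% of all genes), and 5 mitochondrial genes were lower and 1 higher. Relative to that median, nuclear members stood at 0.04 on counts and 0.06 on TPM and mitochondrial members at −0.30 and −0.28. Without the OTC sh-GLUD1 library of mouse 58, 11 nuclear members were called higher in place of 20.

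Under sh-GLS2 fewer members differed between the strains. In OTC livers 8 nuclear members were higher and 3 lower, with a median of 0.03. Both shares, 9.64% and 3.61%, were below those of all genes (14.5% and 14.9%). COX3 was the 1 mitochondrial member called, lower by 0.23 ± 0.06 (adjusted p = 0.00578). The 8 higher members were all called under the control vector too (21.6% of 37), led by Atp5sl (0.28 ± 0.09), Sdhd (0.25 ± 0.07), Atp5b (0.20 ± 0.05) and Ndufb6 (0.20 ± 0.05). Ndufb2 of complex I (−0.35 ± 0.06, adjusted p = 3.64e-05), Ndufs8 (−0.18 ± 0.05) and Ndufaf1 (−0.18 ± 0.06) were lower. Ndufa6 had medians of 66.6 CPM in WT and 72 in OTC mice, with a difference of 0.10 that did not pass the test, and CYTB medians of 11571 and 10979 CPM. No member was apart between the strains here, where 1.01% of all genes were apart upwards and 1.7% downwards. On TPM the median of all genes moved from 0.01 to 0.12 and the split of nuclear calls from 8 and 3 to 57 higher and 1 lower (37.6% and 6.62% of all genes). Relative to that median nuclear members stood at 0.03 on counts and 0.07 on TPM. Without the OTC sh-GLS2 library of mouse 24, 4 nuclear members were called higher, and without the WT sh-GLS2 library of mouse 78, 6 were called lower.

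In OTC mice 52 of 83 nuclear members fell under sh-GLS2 against the OTC controls and 2 rose, where 22.6% of all genes fell and 20.2% rose, and the nuclear median was −0.19 against −0.02 for all genes. Without OTC controls 3 and 67 and WT control 13, 35 of the 52 were called lower (19.3% of all genes), and without any 1 library 41 to 54. Markers of other cells moved with the hairpin: 7 of 8 macrophage markers rose, with sums of 76.0 to 209 CPM in controls and 171 to 289 under sh-GLS2, as did 5 of 8 stellate cell markers, with sums of 223 to 286 and 320 to 440. Also 5 of 7 endothelial markers rose, with sums of 152 to 242 and 205 to 294, and 5 of 6 genes of dividing cells (2.55 to 4.30 against 5.71 to 41.3), while 5 of 8 hepatocyte markers fell. Their part in the changes of the members was not tested. In complex I, 20 of 36 genes fell and 1 rose, in complex II 2 of 4 fell, in complex III 7 of 8, in complex IV 10 of 11 and in complex V 12 of 17 (11 of 15 without Atp5sl and Atp5s). Of 7 assembly factors, Ndufaf2 fell (−0.26 ± 0.08) and Ndufaf7, a methyltransferase that acts on a core subunit of complex I, rose (0.22 ± 0.08). The call of Ndufaf7 was lost without the OTC control of mouse 38. Mitochondrial members moved the other way, with 6 of 13 higher, 1 lower and a median of 0.15.

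This comparison uses the same OTC controls as that of the strains, so the values of both are set side by side and not read as separate evidence. Ndufa6 had 62.7 to 80.5 CPM under sh-GLS2 (median 72), below all OTC controls (98.7 to 131), and fell by 0.61 ± 0.08 (adjusted p = 2.98e-08). Atp5g2 had 58.1 to 71.3 CPM (median 67.1), also below all controls (77.2 to 113), and fell by 0.49 ± 0.06 (adjusted p = 4.43e-09). Sdhd had 151 to 178 CPM (median 171) against 205 to 286, and fell by 0.48 ± 0.07 (adjusted p = 5.34e-07). For each of these genes the sh-GLS2 and control mice did not overlap. The same held for Atp5o, Uqcrh, Uqcr11, Ndufab1, Ndufb4, Ndufb9, Ndufb10, Ndufb11 and Atp5e, 12 members in all, against 3.15% of all genes apart in that direction. No member was apart upwards (3.59% of all genes). Atp5o fell by 0.48 ± 0.08 and Uqcrh by 0.41 ± 0.07, and Uqcrh had 105 to 131 CPM (median 120) against 141 to 205 in controls. Ndufb10, an accessory subunit of complex I, fell by 0.41 ± 0.06 (adjusted p = 2.92e-07), though it had not passed the test between the strains. Atp5k fell by 0.32 ± 0.07 to 35.8 to 47.9 CPM (median 42.5), so it was lowest in the OTC mice that received sh-GLS2.

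Complex II shows how unequal subunits of 1 complex could be. Sdha, which holds the flavin where succinate is oxidized, had 414 to 491 CPM in OTC controls (median 448) and 360 to 430 under sh-GLS2 (median 387), and fell by 0.20 ± 0.04 (adjusted p = 1.81e-04). Sdhd fell by more on the log2 scale, and Sdhb and Sdhc were called in none of the 11 comparisons. Against the trend, Ndufa10, a peripheral subunit of complex I, rose by 0.15 ± 0.05 (adjusted p = 0.0120), from 101 to 121 CPM in OTC controls (median 111) to 110 to 142 (median 120).

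Of the mitochondrial members in OTC mice under sh-GLS2, ND5 rose most, by 0.43 ± 0.12 (adjusted p = 0.00247), from 3958 to 9589 CPM in controls (median 5204) to 6303 to 10449 (median 7621). ND4 rose by 0.36 ± 0.09 (adjusted p = 5.87e-04), from a median of 10013 CPM to 10484 to 15474 (median 13243), and ND4L by 0.36 ± 0.08 to 1160 to 1834 CPM (median 1605). The control and sh-GLS2 mice overlapped in each. CYTB rose by 0.30 ± 0.10 (adjusted p = 0.0145) to 7373 to 13088 CPM (median 10979), ND2 by 0.24 ± 0.07 to 6001 to 8329 CPM (median 7803) and COX1 by 0.17 ± 0.06 (adjusted p = 0.0310) to 35048 to 44808 CPM (median 39655). ND1 went down, by 0.22 ± 0.09 (adjusted p = 0.0329), to 5296 to 6914 CPM (median 6141). Its call was lost without the OTC control of mouse 3, 35 or 67 or the OTC sh-GLS2 library of mouse 31 or 60, and that of COX1 without OTC control 46 or OTC sh-GLS2 library 4 or 24. Without OTC controls 3 and 67 and WT control 13, 7 mitochondrial genes were called higher, ND4 by 0.51 and CYTB by 0.49, none lower, and ND1 stood at −0.09. A larger rise follows from the choice of those OTC controls. COX2, ATP8, ATP6, COX3, ND3 and ND6 were not called.

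**Figure D5:**
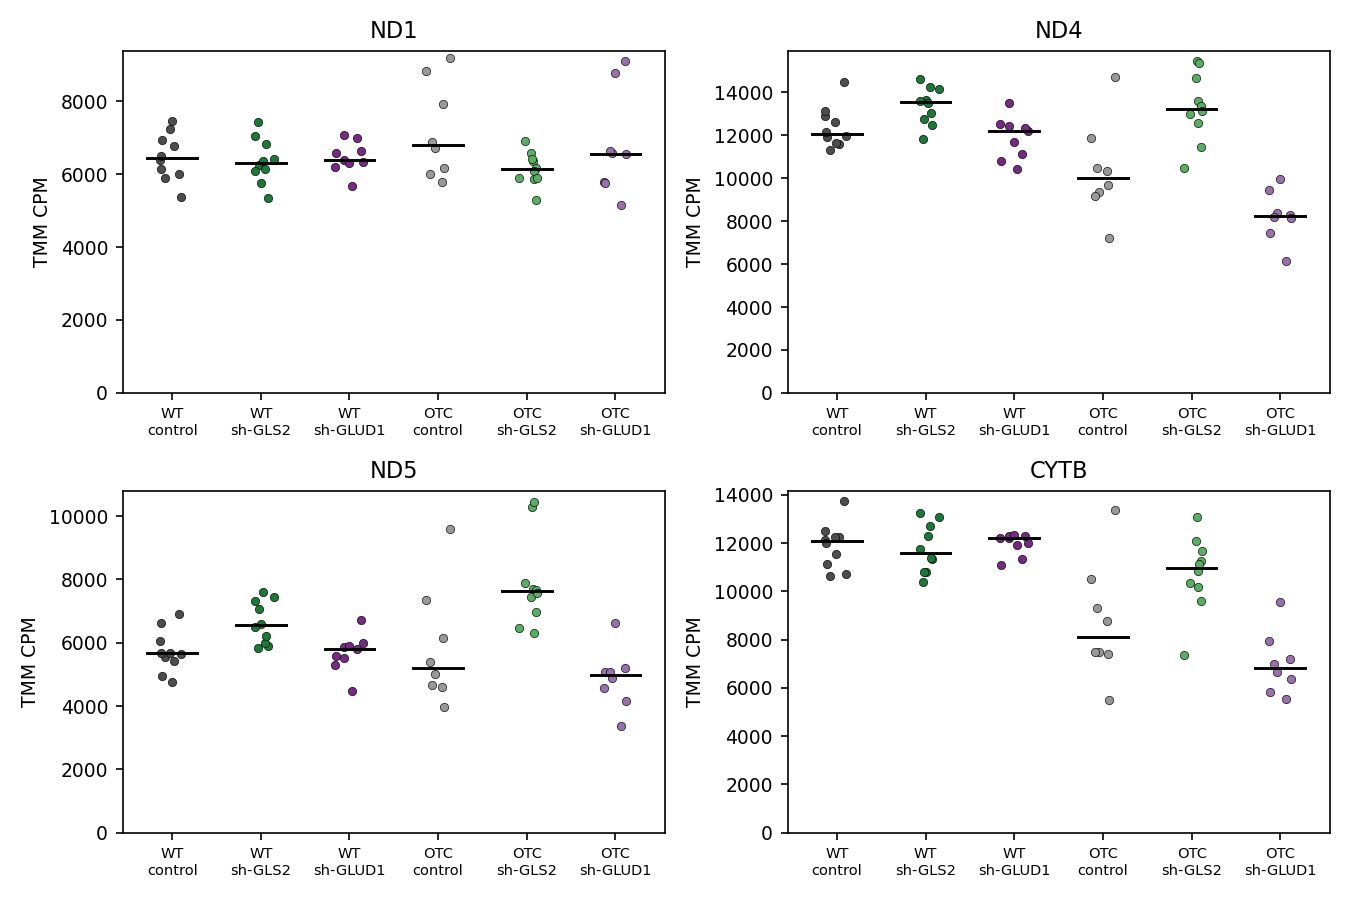
Level in TMM-normalized CPM (y axis, from 0) of ND1, ND4, ND5 and CYTB in each library, by group (x axis), with 1 point per mouse and a bar at the median. ND4 and CYTB are low in OTC control (medians 10013 and 8123 CPM) and OTC sh-GLUD1 livers (8253 and 6826) and higher in OTC sh-GLS2 livers (13243 and 10979), whereas ND1 medians lie between 6141 and 6801 in all groups.

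In WT mice 26 of 83 nuclear members fell under sh-GLS2 against WT controls and 4 rose, where 17.2% of all genes fell and 17.6% rose, and the nuclear median was −0.09 against −0.01 for all genes. Of the 26, 25 also fell in OTC mice, which is 96.2% of the WT list and 48.1% of the OTC list. The same overlap over all genes is not given, so these shares cannot be called particular to the members. Markers of other cells moved here too: 6 of 8 macrophage markers rose, with sums of 95.5 to 160 CPM in controls and 136 to 219 under sh-GLS2, 4 of 8 stellate cell markers, with sums of 210 to 282 and 227 to 399, and 6 of 6 genes of dividing cells, and none of 8 hepatocyte markers was called. Their part in the result was not tested. Complex V had 7 of 17 genes lower (6 of 15 without Atp5sl and Atp5s), complex IV 4 of 11, complex III 4 of 8, complex II 2 of 4, and complex I 9 of 36 with 1 higher. No member was apart from its controls in all mice, where 2.88% of all genes were apart upwards and 1.88% downwards. Atp5k fell most, by 0.39 ± 0.06 (adjusted p = 1.98e-06), from 51.9 to 75.3 CPM (median 62.2) to 42.5 to 55 (median 46.3). Atp5sl fell by 0.30 ± 0.09, Atp5e, the ε subunit of the ATP synthase, by 0.26 ± 0.05 (adjusted p = 1.25e-05), and Ndufv3 of complex I by 0.25 ± 0.06 (adjusted p = 7.03e-04). Sdha fell by 0.22 ± 0.04, from 410 to 515 CPM (median 488) to 388 to 445 (median 412).

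Ndufa6 and Atp5g2, which led the fall in OTC mice, stood at −0.18 and −0.13 in WT mice and did not pass the test there (adjusted p = 0.0594 and 0.0701). Of those that rose, 3 were assembly factors of complex I: Ndufaf6 (0.36 ± 0.10, adjusted p = 0.00360), Ndufaf5 (0.25 ± 0.08) and Ndufaf7 (0.22 ± 0.08). Ndufaf6 had 6.02 to 10.7 CPM in WT controls (median 8.57) and 9.16 to 12.3 under sh-GLS2 (median 10.4), and in OTC mice it stood at 0.21 without passing the test (adjusted p = 0.112). Ndufa10 was the 1 subunit that rose, by 0.20 ± 0.05 (adjusted p = 4.42e-04), from 93.3 to 130 CPM (median 113) to 121 to 139 (median 130). Of the mitochondrial members ND2 rose by 0.19 ± 0.07 (adjusted p = 0.0181), from 6295 to 7715 CPM (median 6917) to 7278 to 8576 (median 7764), and the other 12 were not called. Leaving out the WT control of mouse 2 cut the nuclear members called lower to 16, and leaving out that of mouse 19 raised them to 34.

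The difference between the strains in the effect of sh-GLS2 was tested directly. It passed for Atp5g2, 1 of 83 nuclear members, and for none of the mitochondrial members, where 0.218% of all genes passed downwards and 0.12% upwards. Atp5g2 fell by 0.36 ± 0.08 more in OTC than in WT mice (adjusted p = 0.0334). That call was lost without any 1 of 14 libraries (adjusted p from 0.0120 to 0.0845 over single omissions) and without OTC controls 3 and 67 and WT control 13 (adjusted p = 0.115). Ndufa6 came next with −0.43 and an adjusted p of 0.0726, followed by Ndufb2 (−0.31, 0.114) and Ndufs7 (−0.32, 0.122). At an unadjusted p below 0.05, 15 of 83 nuclear members were lower and 3 of 13 mitochondrial members higher. The shares of all genes were 7.02% lower and 4.2% higher. DESeq2 called 2 nuclear members lower and no mitochondrial member, where it called 0.513% of 11504 genes lower and 0.278% higher. So the longer list in OTC mice was, gene by gene, seldom shown to differ from that in WT mice.

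No member was called under sh-GLUD1 in either strain, although Glud1 itself fell. In WT mice edgeR called 0% of all genes higher and 0.0225% lower against controls, and 3 nuclear members, Sdha, Ndufs4 and Atp5a1, were higher at an unadjusted p below 0.05 (2.22% of all genes). Of the 83 nuclear estimates in WT mice 76 were above 0, with a median of 0.06, as were 5 of 13 mitochondrial estimates and 6367 of the 13311 over all genes. In OTC mice it called 0% of all genes higher and 0.015% lower. There 8 mitochondrial members, ND2, ATP6, COX3, ND3, ND4L, ND4, ND5 and CYTB, were lower at an unadjusted p below 0.05, with no nuclear member, against 2.28% of all genes. All 13 mitochondrial estimates were below 0, with a median of −0.26, 55 of 83 nuclear estimates were below 0, with a median of −0.02, and ND4 and CYTB stood at −0.33 and −0.32, but the smallest adjusted p was 0.740. Without OTC controls 3 and 67 and WT control 13 that median was −0.09. DESeq2 called no member in either strain, nor did either tool for the strain difference in the effect of sh-GLUD1, where 5 mitochondrial and no nuclear members were lower at an unadjusted p below 0.05 (1.35% of all genes).

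The hairpins were also set against each other, a comparison of mice that all received an active hairpin and that shares its sh-GLS2 mice with those above. In WT mice 39 nuclear members were lower under sh-GLS2 and 2 higher (14.2% and 15.5% of all genes). Atp5k (−0.43 ± 0.06), Atp5sl (−0.39 ± 0.10), Ndufv3 (−0.32 ± 0.06) and Atp5e (−0.31 ± 0.05) led, and Sdha, Sdhd, Atp5k, Atp5e and Atp5a1 did not overlap (5 members, against 2.67% of all genes). Ndufaf6 (0.43 ± 0.10) and Ndufa10 (0.14 ± 0.05) were higher, and so was ND2 (0.30 ± 0.07), with 7278 to 8576 CPM against 5530 to 6869 and no overlap (3.51% of all genes apart in that direction). In OTC mice 44 nuclear members were lower and 1 higher (21.1% and 19.5% of all genes), and 8 mitochondrial members were higher with none lower. Ndufa6 (−0.59 ± 0.08), Sdhd (−0.47 ± 0.07), Ndufb10 (−0.47 ± 0.06) and Atp5g2 (−0.45 ± 0.06) led the fall, and 10 nuclear members were apart, against 3.04% of all genes. ND5 and ND4 were each higher by 0.69 (SE 0.12 and 0.09), ND4L by 0.67 ± 0.08, CYTB by 0.62 ± 0.10, ND2 by 0.50 ± 0.07, ATP8 by 0.42 ± 0.14, ATP6 by 0.38 ± 0.08 and COX1 by 0.26 ± 0.06. ND4 and ND4L did not overlap between the hairpins, against 3.33% of all genes apart in that direction.

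Several subunits exist in tissue forms or as gene copies, and the forms present in liver did not all move alike. The forms known from heart and muscle, Cox6a2, Cox7a1 and Cox8b, were among the genes below 1 CPM, as were Cox4i2 and Ndufa4l2, known from lung and low oxygen, and Cox6b2, known from testis. Cox6a1 rose between the strains (0.23 ± 0.06) and fell under sh-GLS2 in OTC mice (−0.14 ± 0.06, adjusted p = 0.0408), and Cox8a fell under sh-GLS2 in both strains (−0.17 ± 0.06 in WT and −0.29 ± 0.07 in OTC). Cox7a2 fell in OTC mice (−0.20 ± 0.06) and stood at −0.08 in WT mice without passing the test, and Cox7a2l, a factor that joins complexes III and IV, rose between the strains (0.31 ± 0.08) and fell under sh-GLS2 in OTC mice (−0.27 ± 0.08). That last call was lost without the OTC control of mouse 3 (adjusted p = 0.0654). Cox6b1 was called in no comparison. Ndufa4, named for complex I and now placed in complex IV, rose between the strains (0.20 ± 0.05) and did not pass under sh-GLS2 in OTC mice (−0.12, adjusted p = 0.0781). Of the 3 genes for the identical c subunit of the ATP synthase, Atp5g2 alone rose between the strains, Atp5g1 was not called between the strains or under sh-GLS2 against control, and Atp5g3 fell by 0.15 ± 0.05 in OTC mice under sh-GLS2 (adjusted p = 0.0232; lost without OTC control 3 or 67). The c subunit genes had means of 663 (Atp5g3), 335 (Atp5g1) and 190 TPM (Atp5g2), so the one that moved most was the lowest. Reads from stretches that the 3 genes share can be counted for the wrong gene, so their single values are uncertain.

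The 3 members on the X chromosome, which also carries Otc, differed. Ndufa1 had medians of 43.2 to 46.9 CPM in all groups and was called in no comparison. Ndufb11 had medians of 80.4 CPM in WT and 85.1 in OTC controls and fell under sh-GLS2 to 67.1 in WT (−0.22 ± 0.06) and 66.9 in OTC (−0.37 ± 0.06). Cox7b had medians of 126 and 141 CPM in WT and OTC controls and rose between the strains (0.24 ± 0.07), and it fell under sh-GLS2 to 105 in WT (−0.20 ± 0.07) and 118 in OTC (−0.31 ± 0.07).

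Genes that serve oxidative phosphorylation without being subunits moved in both directions. The counts are to be read against all genes, of which 19.9% rose and 16.4% fell between the strains, 17.6% rose and 17.2% fell under sh-GLS2 in WT, and 20.2% rose and 22.6% fell in OTC mice. Of 18 tested genes known to control respiratory genes from the nucleus, 3 rose in OTC controls and 1 fell (16.7% and 5.56%), so neither share exceeded that of all genes. Ppargc1a, a coactivator of mitochondrial genes, had 5.82 to 19.8 CPM in WT controls (median 15.2) and 18 to 108 in OTC controls (median 29.4) and rose by 1.71 ± 0.27 (adjusted p = 2.10e-06). Nrf1, the factor whose motif was searched above, rose by 0.49 ± 0.08, Esrra by 0.51 ± 0.11, and Ppara fell by 0.61 ± 0.15. Under sh-GLS2, 1 of the 18 rose and 4 fell in WT mice, and 3 rose and 7 fell (38.9%) in OTC mice, where Nrf1 fell by 0.38 ± 0.08, Sirt3, a mitochondrial deacetylase, by 0.48 ± 0.09, and Ppargc1a stood at −0.62 with an adjusted p of 0.0509. Of 16 genes for copying and reading the mitochondrial genome, none rose in these 3 comparisons, and 4 fell between the strains, 6 under sh-GLS2 in WT and 3 in OTC mice. Polg, the mitochondrial DNA polymerase, fell by 0.22 ± 0.06 between the strains and Mterf3 by 0.32 ± 0.06 under sh-GLS2 in OTC mice.

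Of 19 genes that process or stabilize mitochondrial RNA, 4 rose between the strains (21.1%, against 19.9% of all genes) and none fell, Fastkd1 (0.45 ± 0.10) among those that rose. Under sh-GLS2, 5 rose and 6 fell in WT (26.3% and 31.6%, against 17.6% and 17.2% of all genes) and 3 rose and 8 fell in OTC mice (15.8% and 42.1%, against 20.2% and 22.6%). Grsf1, a protein of the RNA granules where mitochondrial transcripts are handled, fell by 0.46 ± 0.05 in WT and 0.50 ± 0.05 in OTC mice (adjusted p = 3.59e-11 and 1.73e-11). Fastkd1 and Fastkd5 fell by 0.66 ± 0.10 and 0.57 ± 0.09 in OTC mice. Rexo2, a nuclease that degrades short RNA, rose by 0.52 ± 0.07 in WT and 0.43 ± 0.07 in OTC mice. Of 15 electron carriers and partners of complex III, 3 rose and 5 fell between the strains (20% and 33.3%), led by Etfdh (−0.50 ± 0.07), and 1 rose while 5 fell under sh-GLS2 in OTC mice (6.67% and 33.3%), led by Etfa (−0.45 ± 0.05) and Dhodh (−0.61 ± 0.07). Of 35 assembly factors outside the member list 6 rose and 8 fell between the strains (17.1% and 22.9%, near the shares of all genes), and 4 rose while 15 fell under sh-GLS2 in OTC mice (11.4% and 42.9%). In WT mice Tmem70, which assembles the ATP synthase, fell by 0.49 ± 0.05 (adjusted p = 4.29e-11). Of 11 carriers of nucleotides and phosphate, 5 rose and 1 fell between the strains (45.5% and 9.09%), Slc25a5, an ADP/ATP carrier, by 0.54 ± 0.09. None of these genes was called under sh-GLUD1 in either strain.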

How the data were processed

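Poly(A) RNA of 55 livers was sequenced with the KAPA Stranded mRNA kit, per the labels' protocols. The authors deposited whole-number read counts per gene symbol and, as a separate table, TPM values; the submitters' processing notes name CASAVA 1.8.2, FastQC and GRCm38, and the aligner, counter and annotation are not given in the sources used here. Counts of 13311 genes that passed filterByExpr (minimum count 10, minimum total 15) were scaled by TMM and fitted with edgeR 4.0.16 (quasi-likelihood, R 4.3.3) over all 55 libraries and 6 groups. Tests were two-sided, and a call needed an adjusted p (Benjamini-Hochberg over the 13311 genes) below 0.05; SE is the log2 fold change divided by the square root of F, and levels are TMM-normalized CPM. The fit was also run on simulated data for 1 comparison, sh-GLS2 against control in OTC mice. Changes were planted in genes with many counts only, and the outcome is not given here. Alternatives used DESeq2 1.42.0, limma 3.58.1 on log2(TPM + 1) and log2(TPM + 0.1), totals without mitochondrial genes, other filters, the compared groups alone, and omissions of libraries. Over 227 pairs within groups no library repeated another (smallest chi-square per degree of freedom 11.1). Reads carry no molecular identifiers, so counting error is a lower limit, and each library is taken as 1 mouse.

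Named were all mitochondrial members, the 4 highest and 4 lowest called nuclear members of each comparison, called members against the majority of their complex or called in a strain difference, tissue isoforms, X-linked members, Otc, Gls2 and Glud1, and up to 4 called genes of each pathway list, by smallest adjusted p. Other members named were picked after their values were seen, and a list's values are given for part of its selected genes. Members, gene lists and alternatives were chosen with earlier results of these data known. The 4 comparisons of strains under each hairpin and of hairpins within each strain, the motifs and the printed sequences were added after the data were seen. Promoters came from RefSeq (GRCm38.p6), with 15 nuclear members not entered there, and mitochondrial genes from GENCODE M21.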

Additional observations from a re-analysis of the deposited data

Results flagged for a closer look

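In 192 groups of values (a member or sum in 1 group of 8 to 10 mice), 18 had a highest or lowest library set off from its neighbours by more than Dixon's 95% limit, and chance gives about 1 in 20 groups. The WT sh-GLUD1 library of mouse 32 gave 7 of the 18, with the highest nuclear sum (1.07% of counts), the lowest ratio of mitochondrial to nuclear counts (10.1), the lowest ATP8 (663 CPM) and the highest Ndufa6 (99.2 CPM), Ndufb10 (97.3), Ndufb11 (96.0) and Atp5o (132). In OTC sh-GLUD1, mouse 65 was highest in COX2 (11112 CPM), Ndufb10 (114) and Ndufb3 (49.2), and mouse 42 was lowest in ATP8 (362). Of the OTC controls, mouse 67 was highest in Ndufaf7 (15.8 CPM) and mouse 3 in Cox4i1 (419). In WT mice the set-off libraries were control 10, highest in ATP8 (1667 CPM), control 7, lowest in Sdha (410), sh-GLS2 34, highest in COX3 (12850), sh-GLUD1 56, highest in COX3 (11891), and sh-GLUD1 57, highest in Atp5sl (36.7). Apart from the libraries, the effect of sh-GLS2 on Atp5g2 differed between the strains in the interaction test, with a log2 difference of −0.36 (adjusted p = 0.0334).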

How the results depend on the processing

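No paired analysis was possible because each mouse number belongs to 1 mouse and is shared by no other group. Limits of the data are the unequal spread of the groups, widest in OTC controls for mitochondrial genes, the 1 library per mouse, and, for the least abundant assembly factors, few counts. Totals without the mitochondrial genes left the calls of members within 1.5 times of those reported.

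DESeq2 called 2 nuclear members lower in the strain difference of sh-GLS2 and 2 higher for sh-GLS2 against sh-GLUD1 in OTC, and the latter count was also 2 with DESeq2 size factors, with a filter of 1 CPM in 8 libraries and without the 3 doubted libraries (WT control 13, OTC controls 3 and 67). Of all genes DESeq2 called 0.513% and 20.5% in those directions. For the latter comparison the other 3 settings called 20.1%, 20.2% and 20.7%. Without those 3, OTC against WT under the control vector had 21 nuclear members higher and 5 mitochondrial lower, sh-GLS2 in OTC 0 mitochondrial lower, the strain difference 0 nuclear lower, and OTC against WT under sh-GLS2 1 mitochondrial member higher and 2 lower. The shares of all genes in the same order were 14% and 14.4%, 19.3%, 0.0523%, and 16.2% and 16.1%. With no filter, sh-GLS2 in WT had 0 mitochondrial members higher, the strain difference 0 nuclear lower, OTC against WT under sh-GLS2 5 nuclear higher, and sh-GLS2 against sh-GLUD1 in WT 1 nuclear higher. The shares of the 19700 genes then tested were 11.4%, 0.0711%, 8.95% and 9.9% in those directions.

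A fit of the compared groups alone gave 22 nuclear higher and 2 lower for OTC against WT under the control vector, 2 mitochondrial higher for sh-GLS2 in WT, 0 mitochondrial lower for sh-GLS2 in OTC, 0 nuclear lower in the strain difference, 6 nuclear lower with 1 mitochondrial higher and 2 lower for OTC against WT under sh-GLS2, and 4 mitochondrial higher for sh-GLS2 against sh-GLUD1 in WT. The shares of all genes in the same order were 15% higher and 13.7% lower, 18.4%, 20.1%, 0.0908%, 18.1% higher and 17.9% lower, and 18.9%. On log2(TPM + 0.1) and log2(TPM + 1), OTC against WT under the control vector had 62 and 61 nuclear higher, 0 lower, a nuclear median of 0.25 and 2 mitochondrial higher. Under sh-GLS2 both gave 57 nuclear higher, 1 lower, a median of 0.19, and 3 mitochondrial higher and 0 lower, with Cox7a2 (0.13), Atp5g1 (0.12) and Ndufa1 (0.12) reversed to positive. Under sh-GLUD1 they gave 54 and 53 nuclear higher, 0 lower, a median of 0.22, and 1 mitochondrial higher and 5 lower, with Ndufa9 (0.0302 and 0.0300), Ndufs6 (0.0216 and 0.0215) and Cox6b1 (0.14) reversed to positive. They gave 2 mitochondrial higher for sh-GLS2 in WT and for sh-GLS2 against sh-GLUD1 in WT, and 0 lower for sh-GLS2 in OTC. Of all genes, log2(TPM + 0.1) called 17.2%, 14.9% and 18.2% in those directions and log2(TPM + 1) 17.1%, 14.9% and 18.3%. Between the strains log2(TPM + 0.1) called 34.4% higher and 10% lower under control, 37.1% and 6.55% under sh-GLS2, and 42.9% and 7.35% under sh-GLUD1. The shares on log2(TPM + 1) stand with the strains above. The summed share relative to the WT control median, on the TMM effective total, was 1.00003 (nuclear) and 1.04 (mitochondrial) for OTC sh-GLS2 and 1.10 and 0.788 for OTC sh-GLUD1. The cause of these shifts was not tested, except that on TPM the median of all genes moved as given with the strains.

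Leaving out 1 library at a time, OTC against WT under the control vector had 28 to 43 nuclear higher and 3 to 5 mitochondrial lower. OTC against WT had 4 to 9 nuclear higher, 2 to 6 lower and 1 to 2 mitochondrial lower under sh-GLS2, and 11 to 23 nuclear higher under sh-GLUD1. For sh-GLS2 there were 16 to 34 nuclear lower in WT, 1 to 2 nuclear higher and 0 to 1 mitochondrial lower in OTC, 0 to 2 nuclear lower in the strain difference, and 1 to 3 nuclear higher against sh-GLUD1 in OTC. The shares of all genes under single omissions are not given, here or above, so these ranges cannot be called particular to the members.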
